A study of Homo sapiens with 12 samples.

Results

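Stem cell markers other than CD133 were measured in CD133+ and CD133- cells of 3 gastric cancer cell lines. The set holds 10 genes taken by name, CD44, CD24, ALCAM, THY1, LGR5, BMI1, KLF4, POU5F1, NANOG and SOX9, and each has a row among the 34595 genes with a value. KATO-III, SNU-216 and SNU-601 are established lines of gastric carcinoma, grown in culture and labelled with an antibody against the AC133 epitope of CD133. In each line the brightest 10% of cells were sorted as CD133+ and the dimmest 6% as CD133-, so the cells in between were left out of both fractions. Each of the 6 sorted populations was hybridized on 2 Illumina HT-12 v3 arrays, which gives 12 arrays in all. The arrays are labelled SNU-216, while the design description deposited with them names SNU201. Whether the 2 arrays of a population come from separate sorts is not stated in the sources used here. The p-values within and between lines thus measure only the spread between these arrays. Those for the change over all 3 lines together also take in how the change varies between lines.

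Cancer stem cell markers are genes whose product has been used to enrich, within a tumour, the cells that can renew themselves and seed new growth. CD44, CD24, ALCAM and THY1 are surface proteins used for sorting, LGR5 marks stem cells at the base of intestinal and gastric glands, and BMI1 belongs to a chromatin complex that keeps differentiation genes silent. POU5F1, NANOG and KLF4 are transcription factors of the pluripotency network, and SOX9 is a transcription factor of gland progenitors. CD133 itself, encoded by PROM1, is a glycoprotein of membrane protrusions that has been used in the same way.

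ALCAM and KLF4 were called higher in the CD133+ cells of the same lines, KATO-III and SNU-216. For these 2 genes the 250 bases before the transcription start are therefore shown, 5′ to 3′, from RefSeq (GRCh38.p14), with CG dinucleotides in capitals. The ALCAM stretch is at chr3:105366659-105366908 on the plus strand and the KLF4 stretch at chr9:107489770-107490019 on the minus strand.
ALCAM: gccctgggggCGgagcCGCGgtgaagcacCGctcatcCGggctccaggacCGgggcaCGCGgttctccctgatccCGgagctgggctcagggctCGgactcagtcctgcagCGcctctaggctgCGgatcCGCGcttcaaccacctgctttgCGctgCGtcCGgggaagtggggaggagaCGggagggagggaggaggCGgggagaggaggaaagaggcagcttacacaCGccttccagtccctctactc
KLF4: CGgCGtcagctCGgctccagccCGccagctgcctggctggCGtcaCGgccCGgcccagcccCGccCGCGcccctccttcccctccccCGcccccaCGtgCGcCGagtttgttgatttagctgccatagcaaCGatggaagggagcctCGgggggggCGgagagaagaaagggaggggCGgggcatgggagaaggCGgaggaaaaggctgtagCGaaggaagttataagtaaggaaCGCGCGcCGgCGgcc
The ALCAM stretch has a GC content of 68.8% and 20 CG dinucleotides, and the KLF4 stretch 69.2% and 25. Over 35116 promoters of the same length the medians were 58% and 11, and 32.4% of them held at least 20. Searched on both strands, neither stretch holds the letters CACCC, a core of KLF motifs, which 54.7% of promoters hold. Neither holds ACAAT, the core of SOX motifs, which 24.6% hold. Other forms of KLF sites, such as GC-rich ones, were not searched.

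The values are intensities on a linear scale, background-subtracted and quantile-normalized by the authors, and 32.1% of them are at or below 0. A gene was taken as above background on an array where its intensity exceeded a floor of 32.7, which is how far the lowest 1% of all values fall below 0. Of the 10 markers, 6 lay above the floor on all 12 arrays, CD44, CD24, ALCAM, BMI1, KLF4 and SOX9, where 33.7% of all genes did. LGR5 lay above it on 7 arrays. POU5F1, NANOG and THY1 lay above it on none, as did 37.1% of all genes. The intensities of POU5F1, known as OCT4, ran from -9.16 to 18.04 over the 12 arrays, those of NANOG from -32.6 to -9.48, and those of THY1, a surface antigen of fibroblasts and other mesenchymal cells, from -35.0 to -5.18. Values under the floor have no order, so these 3 genes were not compared between the fractions. A gene was tested if it exceeded the floor on 2 arrays or more, which 20146 genes (58.2%) did, among them 7 of the 10 markers.

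**Figure D1:**
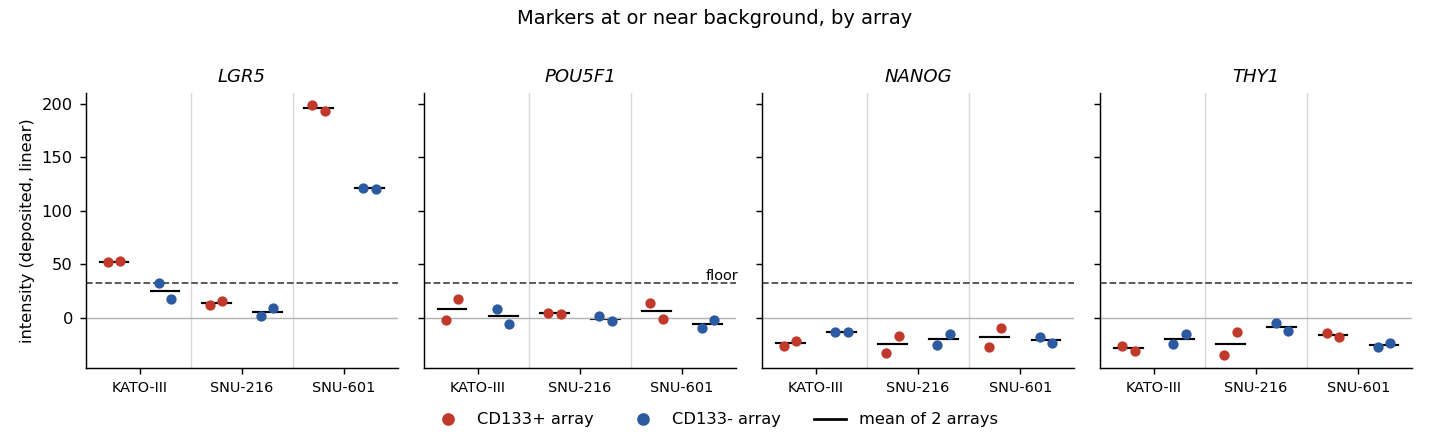
Deposited linear intensity (y axis) of LGR5, POU5F1, NANOG and THY1 on each of the 12 arrays, by line (x axis), with CD133+ arrays in red and CD133- arrays in blue. Short black lines are means of 2 arrays and the dashed line is the floor of 32.7. LGR5 rises above the floor in SNU-601 and in KATO-III, and the other genes stay under it on every array.

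Epithelial markers lay above the floor in all populations, at unequal levels. EPCAM, an adhesion protein of epithelial cells, measured between 9423 and 14168 on the 12 arrays. CLDN4 measured only 76.0 to 281, and KRT18 312 to 448. On every array 7 of 7 epithelial markers lay above the floor, with a summed intensity of 50226 to 62608. In KATO-III the sum was 50226 to 51961 in CD133+ and 56870.1 to 58075 in CD133- arrays, in SNU-216 51972 to 54734 against 51303 to 51791, and in SNU-601 58600.2 to 59070.0 against 58926 to 62608. Of the 7 epithelial markers, 0 rose and 2 fell in KATO-III, 1 rose and 2 fell in SNU-216, and 0 rose and 2 fell in SNU-601. ELF3, an epithelial transcription factor, fell in each line, by 0.91, 0.42 and 0.28 on the log2 scale (adjusted p of 1.68e-05, 0.00188 and 0.0269). CDH1, E-cadherin, fell by 0.70 in KATO-III and 0.25 in SNU-601 (adjusted p of 6.84e-05 and 0.0362) and rose by 0.30 in SNU-216 (adjusted p = 0.0109), and KRT18, a keratin, fell there by 0.39 (adjusted p = 0.0176). PTPRC, which marks blood cells, and PECAM1, which marks endothelium, lay above the floor on none. None of the 5 endothelial markers lay above it on any array, and their sums ran from 0 to 36.1. Of 10 fibroblast and mesenchymal markers, 5 lay above the floor on no array, among them DCN, PDGFRA and COL3A1. The sum over these 10 markers moved with the fraction, from 894 to 926 in CD133+ against 1497 to 1540 in CD133- arrays of KATO-III, 1217 to 1266 against 646 to 653 in SNU-216, and 690.3 to 754 against 581 to 652 in SNU-601. Its members did not move together, since of the 4 tested 2 rose and 1 fell in KATO-III, 2 rose in SNU-216 and 0 were called in SNU-601. In KATO-III COL1A1, a fibrillar collagen above the floor on 7 of the 12 arrays, rose by 0.84 on the log2 scale (adjusted p = 0.00979) and VIM, an intermediate filament protein, by 0.43 (adjusted p = 0.00567), while LUM, a matrix proteoglycan, fell by 3.31. In SNU-216 ACTA2, smooth muscle actin, rose by 4.06, and this gene and LUM are named after their values were seen. ACTA2 lay above the floor on 11 arrays, with a lowest value of 25.2, and COL1A1 averaged 23.9 in CD133- cells of KATO-III. The sizes of the changes of ACTA2 and COL1A1 may thus depend on the floor. The sum over 6 blood markers was lower in the CD133+ cells of each line, 899.6 to 927 against 1317 to 1348 in KATO-III, 209 to 218 against 424 to 469 in SNU-216 and 1154 to 1279 against 1647 to 1702 in SNU-601. One lysosomal protein, CD68, was called lower in each line (log2 change -1.36, -1.13 and -0.46), while PTPRC and CD3E stayed under the floor. The part of these shifts in the changes of the stem cell markers was not tested, and fewer cells of a kind cannot be told apart from less RNA per cell.

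PROM1, which encodes the antigen used for sorting, checks the labels of the fractions. Its intensity in the CD133+ arrays was 9513 and 8847 in KATO-III, 9273 and 8773 in SNU-216 and 4877 and 4677 in SNU-601. In the CD133- arrays it was 4056 and 4493, 2232 and 2219, and 1315 and 1324 in the same order of lines. All CD133+ arrays thus lay above the CD133- arrays of their line. The log2 change, CD133+ minus CD133-, was 1.10, 2.02 and 1.86 (SE 0.0589 in each), or 2.15-, 4.05- and 3.62-fold, with limma adjusted p of 2.38e-06, 3.03e-07 and 5.66e-06. The change differed between the lines (interaction of line and fraction, adjusted p = 9.63e-05). A marker is said below to follow PROM1 in a line where limma, with Benjamini-Hochberg adjustment over the 20146 genes, called it at 0.05 in the direction of PROM1.

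Of the 10 markers, 4 followed PROM1 in KATO-III (ALCAM, LGR5, BMI1 and KLF4), where 18.7% of all tested genes were called higher in CD133+ cells. In SNU-216, 2 of 10 followed it (ALCAM and KLF4), against 14.6% of tested genes, and in SNU-601 1 of 10 (LGR5), against 8.58%. These shares are of tested genes. Of the 7 markers tested, 4, 2 and 1 followed PROM1 in KATO-III, SNU-216 and SNU-601, and nothing particular to the markers is read from counts this small. No marker was called lower in any line, where 20.6%, 14% and 7.78% of tested genes were called lower in KATO-III, SNU-216 and SNU-601. At an unadjusted p under 0.05, 4 were higher in KATO-III, 3 in SNU-216 and 2 in SNU-601 (22%, 18.9% and 14.2% of tested genes), and 0, 0 and 1 were lower (23.8%, 18.7% and 14.4%), the last being KLF4. ALCAM, KLF4 and LGR5 followed PROM1 in 2 lines each, as did 7.44% of tested genes in at least 2 lines. None of the 10 followed it in all 3 lines, as 0.63% did, and CD44, CD24 and SOX9 were called in none, as were 43.8%.

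**Figure D2:**
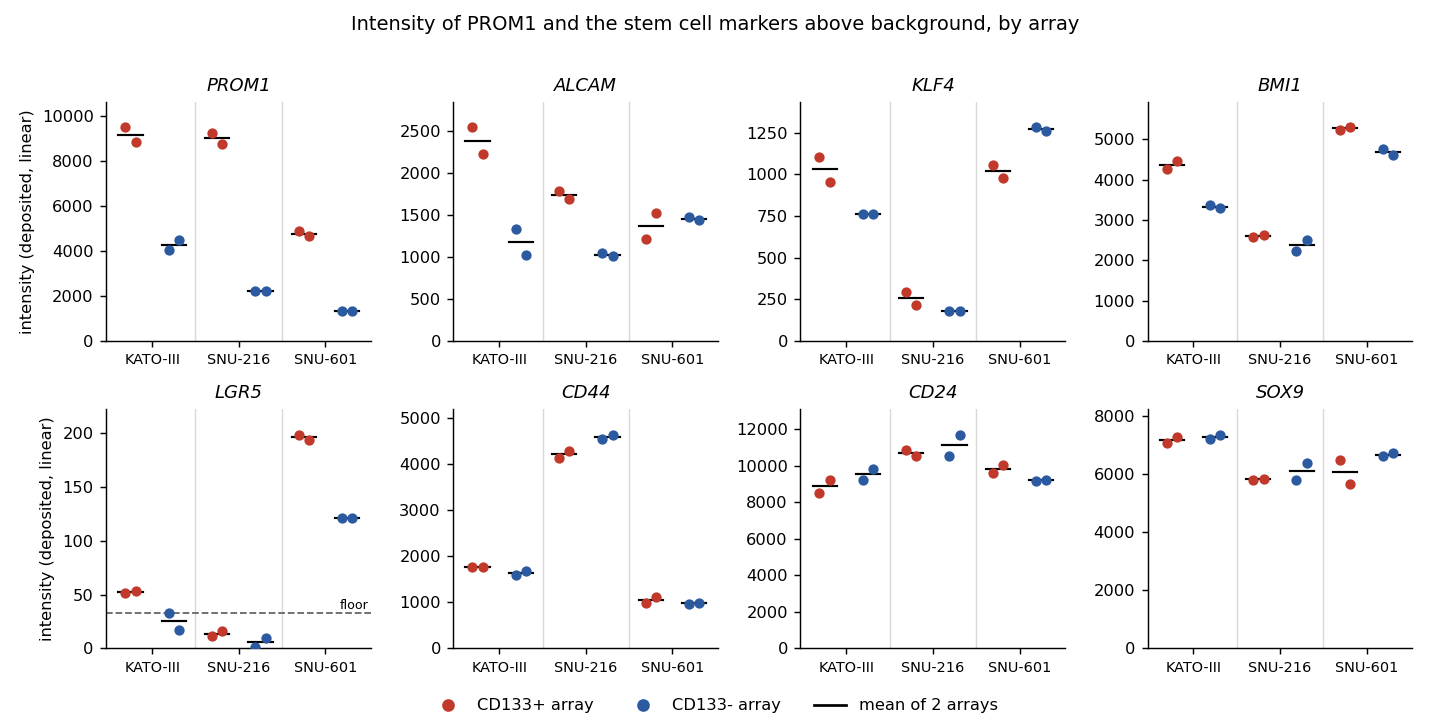
Deposited linear intensity (y axis, starting at 0) of PROM1 and the 7 markers above the floor on at least 2 arrays, by line (x axis), with CD133+ arrays in red, CD133- arrays in blue, and the mean of 2 arrays as a short line. The fractions of ALCAM separate in KATO-III and SNU-216 and overlap in SNU-601, those of BMI1 separate by small steps in each line, and CD44 varies mainly between the lines.

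Among the surface markers, ALCAM, a cell adhesion molecule also called CD166, followed PROM1 in KATO-III and SNU-216 and not in SNU-601. In KATO-III its intensity was 2549 and 2232 in CD133+ arrays and 1335 and 1029.7 in CD133- arrays. In SNU-216 it was 1785 and 1694 against 1043 and 1012, and in SNU-601 1215 and 1521 against 1477 and 1438. The fractions did not overlap in KATO-III and SNU-216, where 32.7% and 30% of tested genes were higher in CD133+ cells without overlap. In SNU-601 the CD133- arrays lay between the CD133+ arrays. The log2 change was 1.02 in KATO-III (2.03-fold, adjusted p = 0.000344) and 0.76 in SNU-216 (1.69-fold, adjusted p = 0.00288), each with an SE of 0.134. In SNU-601 it was -0.10 (95% interval -0.41 to 0.20, adjusted p = 0.734). The change differed between the lines (adjusted p = 0.00295). Of the 10 markers, 3 differed in this way (ALCAM, KLF4 and LGR5) and 7 were tested, and 44.4% of all tested genes differed. With only the 4 arrays of KATO-III in the fit, the adjusted p of ALCAM there was 0.0525.

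CD44, the hyaluronan receptor, was not called in any line, while its level set the lines apart. In KATO-III its intensity was 1760.2 and 1774 in CD133+ arrays and 1593 and 1679.9 in CD133- arrays. In SNU-216 it was 4142 and 4276 against 4541 and 4636, and in SNU-601 983 and 1122 against 961 and 989. The CD133+ arrays lay above the CD133- arrays in KATO-III, as for 32.7% of tested genes. They lay below them in SNU-216, where 31% of tested genes lay below without overlap, and the fractions overlapped in SNU-601. The log2 changes were 0.11 (95% interval -0.03 to 0.25), -0.12 (-0.27 to 0.02) and 0.11 (-0.03 to 0.25), with adjusted p of 0.203, 0.187 and 0.318, and their difference between the lines was not called (adjusted p = 0.0830). Without the first CD133+ array of SNU-601 the change there was 0.20 (adjusted p = 0.0487), and without the second it was 0.0108 (adjusted p = 1). Which transcripts of CD44 the row measures is not given in the sources used here.

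CD24, a small mucin-like surface protein, was likewise not called in any line. Its intensity was 8525 and 9205 in CD133+ against 9229 and 9846 in CD133- arrays of KATO-III, 10875 and 10546 against 10552 and 11693 in SNU-216, and 9596 and 10064 against 9183 and 9234 in SNU-601. The CD133- arrays lay higher in KATO-III, as for 38% of tested genes, and the CD133+ arrays in SNU-601, as for 26.6%. The fractions overlapped in SNU-216. The log2 changes were -0.11 (95% interval -0.25 to 0.04), -0.05 (-0.19 to 0.09) and 0.09 (-0.05 to 0.24), with adjusted p of 0.229, 0.639 and 0.389. CD24 has near-identical copies elsewhere in the genome, so its intensity is uncertain as a measure of this gene alone.

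LGR5, a receptor for R-spondins that strengthens Wnt signalling, followed PROM1 in KATO-III and SNU-601 at low intensity. In SNU-601 it measured 198 and 193 in CD133+ arrays and 121.0 and 120.9 in CD133- arrays. In KATO-III it measured 51.9 and 53.2 in CD133+ arrays, with 1 CD133- array at 32.7, just above the floor, and the other at 17.5. In SNU-216 all 4 arrays lay under the floor, between 1.63 and 15.8, and LGR5 has no change there. The fractions did not overlap in SNU-601 or KATO-III, where 26.6% and 32.7% of tested genes were higher in CD133+ cells without overlap. The log2 change after the floor was 0.70 in SNU-601 (1.62-fold, adjusted p = 0.00286) and 0.68 in KATO-III (adjusted p = 0.000873), each with an SE of 0.105. The size of the change in KATO-III is set by the floor, since both CD133- arrays are at it or within rounding of it. A floor of 16 gave 1.14 in KATO-III (adjusted p = 0.0110), and in SNU-601 0.70 with an adjusted p of 0.151, so the call in SNU-601 was lost, as it was with only the 4 arrays of that line (adjusted p = 0.0991). With a floor of 100 KATO-III has no value for LGR5. The interaction had an adjusted p of 0.00643, and 0.108 with a floor of 16.

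The other genes of R-spondin signalling moved in both directions. Of 12 R-spondin receptors, ligands and regulators, 9 were tested, 4 lay above the floor on all arrays and 3 (RSPO1, RSPO3 and RSPO4) on none. In KATO-III 0 rose and 1 fell, in SNU-216 1 rose and 0 fell, and in SNU-601 2 rose and 2 fell, with medians of -0.22, 0 and -0.10 beside 0 for all genes in each line. ZNRF3, a ubiquitin ligase that removes Wnt receptors, rose in SNU-216 by 0.71 on the log2 scale (adjusted p = 0.00133). In SNU-601 the Wnt co-receptor LRP5 rose by 0.48 (adjusted p = 0.000865), and LGR4, the relative of LGR5, fell by 0.46 (adjusted p = 0.00861).

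Of 19 gut stem cell genes, 14 were tested, and 5 rose and 1 fell in KATO-III, 1 rose and 2 fell in SNU-216, and 5 rose and 0 fell in SNU-601. Their medians were 0.23, 0 and 0.07. Of all tested genes 18.7%, 14.6% and 8.58% were called higher in these lines, and 20.6%, 14% and 7.78% lower. PTPRO, 1 of the 5 in SNU-601, exceeded the floor on only 2 arrays, at 45.0 at most. Its change of 0.40 there thus depends on the floor, and it is named after its values were seen. LRIG1, a negative regulator of ErbB receptors that marks stem cells, rose in KATO-III by 0.67 (adjusted p = 8.06e-06) and in SNU-601 by 0.17 (adjusted p = 0.0321), and its change in SNU-216 was 0.06 (adjusted p = 0.391). RUNX1, a transcription factor whose enhancer marks stem cells of the stomach, fell by 1.25 in KATO-III (adjusted p = 4.36e-05). ASCL2, a Wnt-driven transcription factor of crypt stem cells, fell by 0.34 in SNU-216 (adjusted p = 0.00169), and EPHB2, a receptor of crypt cells, rose there by 0.31 (adjusted p = 0.0282). OLFM4, MSI1 and HOPX, which mark gut stem cells as well, lay above the floor on no array.

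BMI1, a subunit of Polycomb repressive complex 1, was higher on both CD133+ arrays than on both CD133- arrays in every line. Its intensity was 4274 and 4453 against 3375 and 3285 in KATO-III, 2567 and 2620.3 against 2226 and 2505 in SNU-216, and 5238 and 5299 against 4756 and 4615 in SNU-601. Among tested genes, the CD133+ arrays lay above the CD133- arrays without overlap for 32.7% in KATO-III, 30% in SNU-216 and 26.6% in SNU-601. BMI1 was called in KATO-III, with a log2 change of 0.39 (1.31-fold, SE 0.0562, adjusted p = 0.000597). The changes of 0.14 in SNU-216 (95% interval 0.01 to 0.26) and 0.17 in SNU-601 (0.04 to 0.30) were not called, with adjusted p of 0.113 and 0.0759. The difference between the lines had an adjusted p of 0.0504. Without the second CD133- array of SNU-216 the change there was 0.22 (adjusted p = 0.0141), and without the first it was 0.0497 (adjusted p = 0.541). Without either of these arrays the adjusted p in SNU-601 was 0.0244 each time. With the arrays centred on their medians the adjusted p in SNU-601 was 0.0340.

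Over all 3 lines, with cell line as a block, BMI1 was the 1 marker of 10 called higher (log2 change 0.23, SE 0.0564, limma adjusted p = 0.0418), where 2.62% of tested genes were, and 0 were called lower, where 2.11% were. At an unadjusted p under 0.05, 3 were higher and 0 lower, as were 11.5% and 13% of tested genes. This call was lost with the means of the arrays of each population (adjusted p = 0.796), with each population taken as a random block (0.307), and without any of 11 of the 12 arrays, where the adjusted p ran up to 0.103 and the change from 0.20 to 0.25. It was kept without the second CD133- array of SNU-216 (0.26, adjusted p = 0.0417). Over all lines ALCAM changed by 0.56 (adjusted p = 0.0710), LGR5 by 0.46 (adjusted p = 0.0571) and KLF4 by 0.21 (adjusted p = 0.366), while CD44, CD24 and SOX9 stood at 0.03, -0.02 and -0.08 (adjusted p of 0.775, 0.806 and 0.337). Without the first CD133+ array of SNU-601 ALCAM was called, at 0.68 (adjusted p = 0.0366).

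The other 17 listed genes of Polycomb repressive complex 1 and its targets were all tested. In KATO-III 6 rose and 5 fell, in SNU-216 6 rose and 3 fell, and in SNU-601 2 rose and 0 fell, with medians of 0.10, 0.26 and 0.11. PCGF5, which takes the same place as BMI1 in a variant of the complex, rose in KATO-III by 1.63 (adjusted p = 0.00329) and in SNU-216 by 1.71 (adjusted p = 0.00366), and its change in SNU-601 was -0.19 (adjusted p = 0.816). The chromobox subunits moved unequally in KATO-III, where CBX8 rose by 0.64 (adjusted p = 0.00549) while CBX7 fell by 0.72 (adjusted p = 0.00118) and CBX6 by 0.63 (adjusted p = 3.76e-05). CBX6 rose in SNU-216 by 0.41 (adjusted p = 0.000735).

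**Figure D3:**
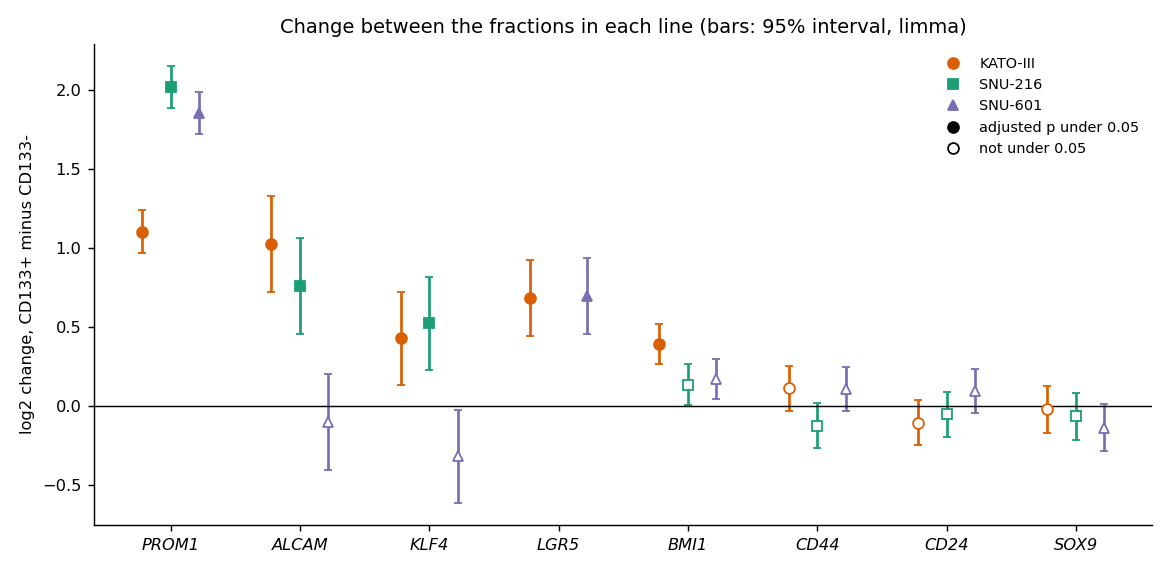
Log2 change, CD133+ minus CD133- (y axis), of PROM1 and the 7 tested markers (x axis) in KATO-III (circles), SNU-216 (squares) and SNU-601 (triangles), with limma's 95% intervals and filled symbols for an adjusted p under 0.05. ALCAM and KLF4 lie above 0 in KATO-III and SNU-216 and below it, unfilled, in SNU-601, LGR5 has no symbol in SNU-216, where it was at the floor, and CD44, CD24 and SOX9 are unfilled throughout.

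KLF4, a zinc finger factor of differentiating epithelium that also serves in reprogramming to pluripotency, followed PROM1 in KATO-III and SNU-216, with the opposite sign in SNU-601. In KATO-III its intensity was 1103 and 957 in CD133+ arrays and 763 and 765 in CD133- arrays. In SNU-216 it was 296 and 217 against 177 and 176, and in SNU-601 1058 and 980.4 against 1284 and 1258. The CD133+ arrays lay above in KATO-III and SNU-216, as for 32.7% and 30% of tested genes. The CD133- arrays lay above in SNU-601, where 28.3% of tested genes were lower in CD133+ cells without overlap. The log2 change was 0.43 in KATO-III (1.35-fold, adjusted p = 0.0282) and 0.52 in SNU-216 (1.44-fold, adjusted p = 0.0154), each with an SE of 0.130. In SNU-601 it was -0.32 (95% interval -0.62 to -0.02, adjusted p = 0.141). The change differed between the lines (adjusted p = 0.00901).

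KLF4 was called in 9 of 12 fits that each left out 1 array, in both KATO-III and SNU-216. With only the 4 arrays of a line its adjusted p was 0.0680 in KATO-III and 0.244 in SNU-216. In KATO-III it was not called without the first CD133+ array (0.33, adjusted p = 0.190) or without either CD133- array, where the change was nearly as before (0.43 each time, adjusted p of 0.107 and 0.105). In SNU-216 it was not called without the first CD133+ array (0.30, adjusted p = 0.0586) or without either CD133- array (0.52 each time, adjusted p of 0.0711 and 0.0736), and without the second CD133+ array the change was 0.75 (adjusted p = 0.0019). In SNU-601 it was called lower without either CD133+ array of SNU-216 (adjusted p of 0.0306 and 0.0302).

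Of 16 other KLF genes, 11 were tested. In KATO-III 1 rose and 5 fell, in SNU-216 0 rose and 2 fell, and in SNU-601 3 rose and 1 fell, with medians of -0.48, 0 and 0. KLF6 fell in KATO-III by 1.31 (adjusted p = 3.65e-07) and in SNU-216 by 0.31 (adjusted p = 0.00098), and its change in SNU-601 was 0.06 (adjusted p = 0.487). KLF2 fell by 0.63 and 0.78 in these lines (adjusted p of 6.97e-06 and 5.47e-06) and rose in SNU-601 by 0.21 (adjusted p = 0.00925). Both had the opposite sign to KLF4 in each line. KLF10 fell in KATO-III by 0.57 (adjusted p = 0.0122) and rose in SNU-601 by 0.61 (adjusted p = 0.0209), and KLF13 fell in KATO-III by 0.62 (adjusted p = 0.000103) and in SNU-601 by 0.50 (adjusted p = 0.00155).

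The rest of the pluripotency network lay mostly under the floor, as POU5F1 and NANOG did. Of 26 other genes, 16 lay above the floor on no array, among them LIN28, SALL4, ZFP42 and TERT, and 10 were tested. In KATO-III 3 rose and 3 fell, in SNU-216 1 rose and 3 fell, and in SNU-601 0 rose and 3 fell, with medians of -0.17, -0.13 and -0.04. SOX2 was among the tested genes, above the floor on 8 arrays at up to 2366, and rose in KATO-III by 0.46 (adjusted p = 0.0196). Its changes after the floor were 0 in SNU-216 and 0.001 in SNU-601, neither called. It is named after its values were seen. STAT3, the effector of self-renewal signals in mouse embryonic stem cells, fell in each line, by 0.28 in KATO-III (adjusted p = 0.0123), 0.58 in SNU-216 (adjusted p = 0.000403) and 0.29 in SNU-601 (adjusted p = 0.0226). DNMT3B, a DNA methyltransferase, fell by 0.44 in KATO-III (adjusted p = 0.0466) and rose by 0.60 in SNU-216 (adjusted p = 0.0167). The row named TCF3 rose in KATO-III by 0.32 (adjusted p = 0.0178) and fell in SNU-601 by 0.41 (adjusted p = 0.0138). This symbol is also an older name of TCF7L1, and which gene the row measures is not given in the sources used here. It is counted in the list, but its place in the network is uncertain. MYC rose in KATO-III by 0.14 (adjusted p = 0.0342) and fell in SNU-216 by 0.19 (adjusted p = 0.0121).

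SOX9 was not called in any line. Its intensity was 7069 and 7282 in CD133+ against 7209.6 and 7368 in CD133- arrays of KATO-III, 5813 and 5841 against 5826 and 6392 in SNU-216, and 6491.5 and 5682 against 6623 and 6734 in SNU-601. The fractions overlapped in KATO-III and SNU-216, and in SNU-601 the CD133- arrays lay above, as for 28.3% of tested genes. The log2 changes were -0.02 (95% interval -0.17 to 0.13), -0.07 (-0.22 to 0.08) and -0.14 (-0.29 to 0.01), with adjusted p of 0.886, 0.554 and 0.216. Of 18 other SOX genes, 9 lay above the floor on no array and 9 were tested, of which 1 rose and 2 fell in KATO-III, 3 rose and 0 fell in SNU-216, and 0 rose and 1 fell in SNU-601. Their medians were -0.12, 0 and 0. The gene that rose in KATO-III was SOX2. SOX4, a factor of progenitor cells, rose in SNU-216 by 0.26 (adjusted p = 0.0436), and SOX13 fell in KATO-III by 0.64 (adjusted p = 0.000151) and rose in SNU-216 by 0.32 (adjusted p = 0.0107).

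Further surface and enzyme markers of cancer stem cells moved in both directions. Of 25 listed, 19 were tested and 6 lay above the floor on no array, among them KIT, CD34 and ENG. In KATO-III 6 rose and 4 fell, in SNU-216 5 rose and 3 fell, and in SNU-601 2 rose and 1 fell, with medians of 0.07, 0.03 and 0. PROCR, the endothelial protein C receptor, rose in each line, by 0.63 in KATO-III (adjusted p = 0.000125), 0.43 in SNU-216 (adjusted p = 0.00191) and 0.48 in SNU-601 (adjusted p = 0.00242). The tetraspanin CD9 rose by 0.44 in KATO-III and 0.75 in SNU-216 (adjusted p of 0.00251 and 0.000235), and CD47, which inhibits phagocytosis, by 0.60 and 0.18 (adjusted p of 2.91e-05 and 0.0257). PODXL, a sialomucin, fell by 0.23 and 0.36 in the same lines (adjusted p of 0.00556 and 0.0007). The genes of this list with the largest changes were above the floor on 11 arrays, and are named after their values were seen. ALDH1A1, an aldehyde dehydrogenase used to mark stem cells by its activity, rose by 3.09 in SNU-216 and fell by 1.17 in KATO-III and 0.97 in SNU-601 (adjusted p of 1.55e-07, 5.80e-06 and 0.000181). FUT4, which makes the CD15 antigen, rose by 3.04 in SNU-216 (adjusted p = 6.91e-07), and its changes in KATO-III and SNU-601 were -0.16 and 0.35 (adjusted p of 0.290 and 0.0597). In SNU-216 both had 1 CD133- array under the floor, at 27.4 for ALDH1A1 and 26.4 for FUT4, so the sizes of these changes there depend on it.

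Of 15 ligands, partners and splicing factors of CD44, 12 were tested, of which 4 rose and 1 fell in KATO-III, 2 rose and 4 fell in SNU-216, and 2 rose and 2 fell in SNU-601, with medians of 0, 0 and 0. HMMR, the other hyaluronan receptor, rose in each line, by 0.75, 0.41 and 0.27 (adjusted p of 1.40e-05, 0.000644 and 0.0118), and it belongs to the genes the study chose on these same arrays. MSN, which links CD44 to actin, rose in KATO-III by 0.97 (adjusted p = 0.0491). RBM35A, a splicing factor of epithelial CD44 forms now called ESRP1, fell in SNU-601 by 0.28 (adjusted p = 0.0200).

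**Figure D4:**
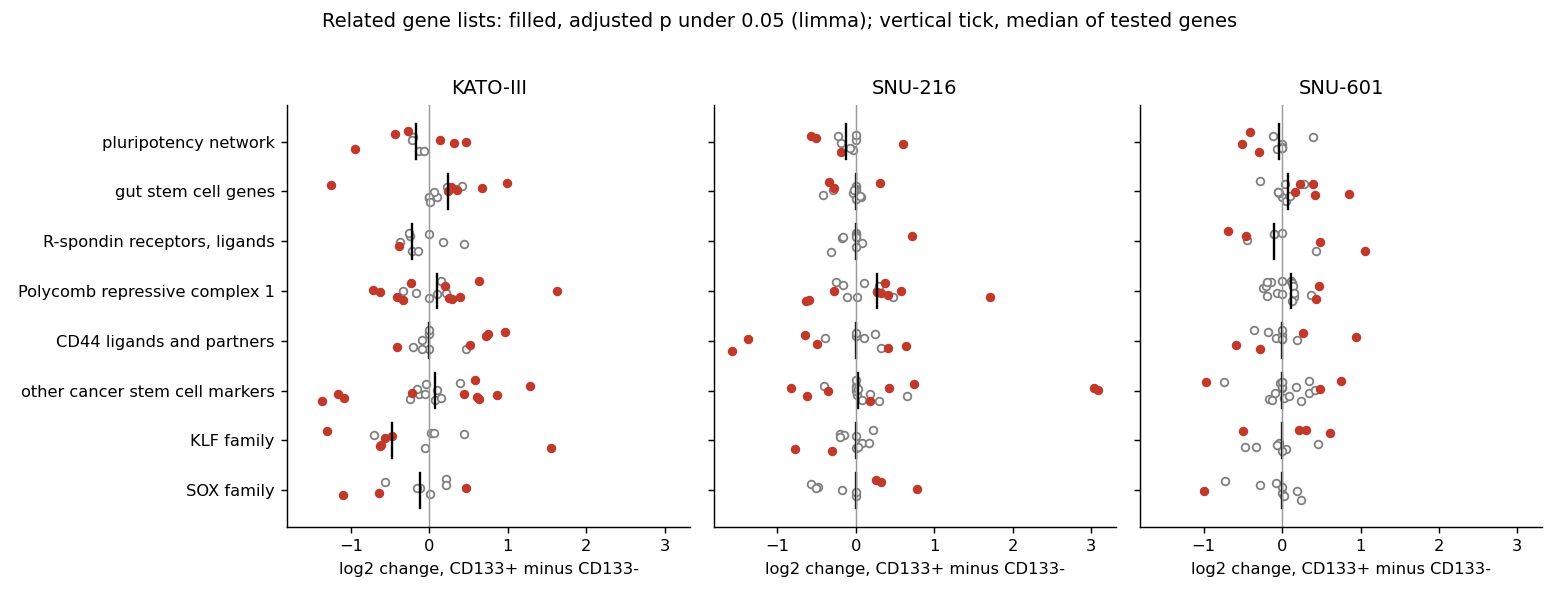
Log2 change, CD133+ minus CD133- (x axis), of each tested gene of 8 related lists (y axis) in KATO-III, SNU-216 and SNU-601, with filled red points for a limma adjusted p under 0.05 and a vertical tick at the median. In each line genes of most lists lie on both sides of 0, and the KLF family in KATO-III has its median at -0.48.

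The levels of several markers also differed between the lines. Comparing each gene with itself, 7 of the 7 tested markers differed between KATO-III and SNU-216. Between KATO-III and SNU-601 6 did, and between SNU-216 and SNU-601 5, with 3 of the 10 not tested. Of all tested genes 62%, 58.6% and 56.5% did, and nothing particular to the markers is read from these counts. CD44 was highest in SNU-216, where its level was 2.58-fold that in KATO-III (KATO-III minus SNU-216, log2 difference -1.37) and 4.34-fold that in SNU-601 (SNU-216 minus SNU-601, 2.12). KLF4 was lowest in SNU-216, with a level 4.19-fold higher in KATO-III (KATO-III minus SNU-216, 2.07) and 5.38-fold higher in SNU-601 (SNU-216 minus SNU-601, -2.43). BMI1 was also lowest there, with differences of 0.62 and -1.01 in the same order. LGR5 was at least 4.71-fold higher in SNU-601 than in SNU-216, where it was at the floor. In KATO-III it was 1.27-fold higher than in SNU-216 after the floor, which also raised 1 CD133- array of KATO-III, so this is no lower bound. The log2 difference was 1.15 with a floor of 16 and 0 with a floor of 100.

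CD24, ALCAM and SOX9 varied less. The log2 level of CD24 was highest in SNU-216, with -0.25 for KATO-III minus SNU-216 and 0.20 for SNU-216 minus SNU-601 (adjusted p of 0.000855 and 0.00358), and the other lines had an adjusted p of 0.374. SOX9 was highest in KATO-III, by 0.28 over SNU-216 and 0.18 over SNU-601 (adjusted p of 0.000578 and 0.00761). The mean of both fractions of ALCAM was highest in KATO-III too, by 0.32 and 0.25 (adjusted p of 0.0147 and 0.0489), and SNU-216 and SNU-601 had an adjusted p of 0.563. This order is not that of the CD133- cells, where the mean intensity was 1182 in KATO-III and 1458 in SNU-601.

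Ordered by population, the 6 means of BMI1 ran from CD133+ cells of SNU-601 down through CD133- cells of SNU-601, CD133+ and CD133- cells of KATO-III, and CD133+ and CD133- cells of SNU-216, with no overlap between neighbours. For ALCAM the CD133+ cells of KATO-III and then of SNU-216 lay above the rest, and the arrays of the lower populations overlapped. For KLF4 the CD133+ cells of KATO-III and SNU-601 overlapped, and for CD44 the fractions of SNU-601 did.

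Among 11672 other genes above the floor on all 12 arrays, those most like a marker over the arrays were found by Pearson's r of log2 intensities, for the 4 such markers whose population means span at least 1 on the log2 scale. They were PACS2 and WNT5B for CD44 (r = 0.994 each), ITPK1 and PARL for KLF4 (0.997 and 0.992), MOSC2 and IL8 for BMI1 (0.993 and 0.988), and SMNDC1 and LOC100131787 for ALCAM (0.962 and 0.956). The 12 arrays share lines and fractions, so these values describe the arrays and carry no test.

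By the signal-to-noise ratio, in which the mean of 6 CD133+ arrays less that of 6 CD133- arrays is divided by the summed SDs of both, 0 of 10 markers passed 1, where 0.558% of all genes did, and 0 passed -1, where 0.402% did. ALCAM had 0.868, BMI1 0.271, LGR5 0.261, KLF4 0.0353, CD44 -0.0179, CD24 -0.0824 and SOX9 -0.263, beside 1.40 for PROM1.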

How the data were processed

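The deposited table holds linear intensity values of 12 Illumina HT-12 v3 arrays, quantile-normalized by the authors, with 1 row per gene symbol. The submitters' processing notes name BeadStudio. The background subtraction is seen in the values. The rule that made 1 value from several probes is not given in the sources used here. Of 34688 rows, 34595 hold values, from -56.4 to 23394. Each array had 16320 to 16472 genes over the floor, the array medians were 26.0 to 27.1, and 2 arrays per population limit the precision.

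Deposited intensities under the floor of 32.7 were set to it and log2 was taken. The floor was chosen after the values were seen. Genes above it on at least 2 arrays entered limma 3.58.1 (R 4.3.3; lmFit, eBayes with a mean-variance trend), with Benjamini-Hochberg adjustment at 0.05. Changes within lines, their interaction with line, and levels between lines came from 1 cell-means model over the 6 populations. The change over all lines had cell line as a block. The median SD between replicates was 0.0685 to 0.0716 on the log2 scale. Alternatives changed the floor (16 or 100), an offset of 100, centring, normalization, the filter, the trend, the treatment of replicates and lines, and left out each array. Same-numbered arrays of the fractions deviated together with r of only 0.028, 0.01 and 0.024, so the numbers were not taken as pairs.

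The markers, the related lists and the tests were chosen with earlier results of these data known. Named beside the 10 markers and PROM1 were, for each list, up to 4 genes above the floor on all 12 arrays with the largest called change in any line, cell type markers, and the 2 genes most like each marker. In lists of absent genes the named ones are examples. An older symbol was used only where the current one has no row. The fits were tested on simulated data with known changes. A log2 change of 0.5 was given to 200 of 11673 genes. It was recovered for 58.5% of the 200 in KATO-III, 17% by the interaction and 83.5% over all lines. For a change of 1 these shares were 89.5%, 73% and 98%. The deposited data had 20146 tested genes, with 7917 called in KATO-III and 44.4% differing in their change between the lines. How often a change is recovered under those conditions was not tested. Smaller changes were not simulated, so a marker not called may still have a small change. Other steps used Python 3.11.15, numpy 2.4.6, pandas 2.3.3, scipy 1.17.1 and matplotlib 3.10.9. Promoters are RefSeq's, of build GRCh38.p14.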

Additional observations from a re-analysis of the deposited data

Results flagged for a closer look

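The change between CD133+ and CD133- cells differed between the 3 lines by limma's F-test of the interaction, with the Benjamini-Hochberg adjusted p given in parentheses, for these genes named above. Among the markers and their reference they were ALCAM (0.00295), LGR5 (0.00643), KLF4 (0.00901) and PROM1 (9.63e-05). For LGR5 the line at the floor, SNU-216, counts as no change in this test, and the adjusted p was 0.108 with a floor of 16 and 0.238 with an offset of 100. Of the KLF and SOX families, KLF6 (5.09e-06), KLF2 (1.17e-05), KLF13 (0.000357), KLF10 (0.00415) and SOX13 (0.000324) differed.

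Of the genes listed for pluripotency, gut stem cells and R-spondin signalling, DNMT3B (0.0101), TCF3 (0.00312), MYC (0.00587), RUNX1 (0.000275), LRIG1 (0.000195), ASCL2 (0.00438), EPHB2 (0.00821), ZNRF3 (0.00188) and LRP5 (0.000283) differed. Of the Polycomb genes, PCGF5 (0.0114), CBX7 (0.00232), CBX8 (0.00682) and CBX6 (4.67e-05) differed. Of the CD44 partners and other surface markers, HMMR (0.00274), RBM35A (0.0233), CD9 (0.00965) and CD47 (0.000405) differed. Of the cell type markers, ELF3 (0.00190), CDH1 (0.000194), VIM (0.0311) and CD68 (0.00352) differed. Such a difference was called for 44.4% of all tested genes.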

How the results depend on the processing

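The number of markers called higher in KATO-III (4) was 2 with only the 4 arrays of the line. In SNU-216 (2) it was 1 with no filter and 1 with only the line's arrays. In SNU-601 (1) it was 0 with a floor of 16, 0 with genes above the floor on all 12 arrays, where LGR5 is not tested, 0 with only the line's arrays, and 2 with the arrays centred on their medians. Over all lines (1) it was 2 with an offset of 100, 2 with genes above the floor on all 12 arrays, and 0 with no filter, no trend, the means of the arrays of each population, or each population as a random block. With the replicate number as a block it was 0 over all lines (BMI1 adjusted p = 0.189), and the block changed no other count of markers by over 1.5 times. The number whose change differed between the lines (3) was 5 with centred arrays. With centred arrays, CD24 over all lines turned to 0.00504 and SOX9 in KATO-III to 0.0204 on the log2 scale, neither called. The cause was not tested for these settings, apart from fewer arrays or genes in the fit.

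Leaving out 1 array at a time gave 3 to 4 markers higher in KATO-III, 1 to 2 in SNU-216, 1 to 2 in SNU-601 and 0 to 1 over all lines, with 0 to 1 lower in SNU-601 and 0 lower elsewhere. The difference between lines gave 3 to 4, the levels 6 to 7, 5 to 6 and 5 to 6, and signal-to-noise ratios above 1 gave 0 to 1. Changes whose sign turned were small, CD44 over all lines (-0.0022 to 0.0562), CD24 in SNU-216 (-0.127 to 0.0214) and over all lines (-0.0446 to 0.00279), ALCAM in SNU-601 (-0.263 to 0.0612) and SOX9 in SNU-216 (-0.134 to 0.000347), none of them called with all arrays. ALCAM in KATO-III (0.84 to 1.21) and SNU-216 (0.72 to 0.80), BMI1 in KATO-III (0.36 to 0.42) and LGR5 in KATO-III (0.67 to 0.70) and SNU-601 (0.68 to 0.71) were called in 12 of 12 such fits. For LGR5 the floor fixes much of this, since its arrays of SNU-216 and 1 CD133- array of KATO-III were set to it. With a floor of 16 the SE of LGR5 was 0.275 in place of 0.105.

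Low signal limits LGR5, whose change in KATO-III depends on the floor, and POU5F1, NANOG and THY1, for which no change can be read. With 2 arrays per population the spread is shared over the lines.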
